A study of Mus musculus with 3 samples.

Results

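The autophagy genes described here are 39 mouse genes chosen by name in the annotation GENCODE M21, out of 55536 annotated genes and 22028 protein-coding genes in the tables. They cover the kinases that start autophagy, the lipid kinase complex, membrane supply, the conjugation enzymes, the ATG8 proteins, the cargo receptors with 1 scaffold, and a pair of transcription factors. The list was made by gene name and not by a cut on a measured value. Earlier results of these data were known when it was chosen. Their RNA was measured in the chromatin fraction of bone-marrow-derived macrophages of strain C57BL/6J, primary cells grown from marrow progenitors. Every library had the same treatment: Lipid A, the lipid anchor of bacterial lipopolysaccharide and the ligand of TLR4, at 100 ng/ml for 12 h, then 12 h without it, then 100 ng/ml again for 25 min. There were 3 libraries of ribosome-depleted total RNA, biological replicates 1, 2 and 3, made from 1 µg, 250 ng and 500 ng of RNA. The labels give the same donor identifier for all 3 and leave sex and age as not collected. They do not say whether the replicates came from separate animals, so each SD below measures the spread between these libraries, which may be technical. No untreated sample and no other cell fraction was analysed here, so the values are levels within 1 state.

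Autophagy encloses cytoplasm, damaged organelles or bacteria in a double membrane, the autophagosome, which then fuses with lysosomes. The ULK kinase complex starts the process, a phosphatidylinositol 3-kinase complex marks the membrane with the lipid PI3P, and a ubiquitin-like conjugation system attaches ATG8 proteins (the LC3 and GABARAP families) to the growing membrane. Cargo receptors such as Sqstm1 bind ubiquitin on the cargo and ATG8 on the membrane. Macrophages use this machinery against bacteria in the cytosol and, in part, to attach LC3 to phagosomes. RNA bound to chromatin includes transcripts still being made or spliced, so its level is not that of the messenger RNA in the cytoplasm.

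Summed over annotated genes, the libraries held 13502401, 17848798 and 17824176 expected counts (replicates 1 to 3). One ribosomal RNA locus on chromosome 17 held 11.1%, 31.8% and 24.8% of them, in the same order. Levels are in TPM, an abundance that scales for length and to the same total per library and so allows levels of different genes to be set side by side. All 8 macrophage markers were detected (at least 1 TPM in every library), with a summed level of 869 to 945 TPM. None of 6 neutrophil, 4 B cell or 5 fibroblast markers was detected. Their summed levels were 0.49 to 0.99, 0.15 to 0.36 and 0.01 to 1.5 TPM, and Ly6g and S100a8 were at 0. Of 5 T cell markers Cd4 was detected, at 7.36, 10 and 6.33 TPM, while Cd3e was at 0, and the summed level of the 5 was 6.44 to 10.3 TPM. In a second deposited quantification, 1 neutrophil, 1 fibroblast and 3 T cell markers reached the detection bound, and still no B cell marker. Fibroblast counts lay almost only in replicates 2 and 3, with Col1a1 at 0, 32 and 42 expected counts and Col3a1 at 0, 16 and 18. In such bulk samples, fewer cells with a transcript and less of it per cell cannot be told apart.

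Splice sites that annotated transcript models of the autophagy genes read through are shown first. Much of the signal of several members was assigned to such models. The sites come from the annotation, and sequencing reads across them were not examined. GENCODE calls a transcript retained_intron where it holds sequence that is intronic in another transcript of the gene. The windows below hold the last 10 exon bases and the first 20 intron bases at such a site, 5′ to 3′, with the first 6 intron bases in capitals. They are given for the 5 members with the highest retained_intron share of TPM and for Sqstm1, the member with the highest level. For each gene the site is the first one read through by its most abundant retained_intron transcript that reads through any. Sequences are from the GENCODE M21 transcripts on GRCm38 (mm10). They lie at chrX:7766846-7766875 on the plus strand for Tfe3, chr11:101296238-101296267 on the minus strand for Becn1 and chr9:105643018-105643047 on the plus strand for Pik3r4. The others lie at chr1:93784889-93784918 on the plus strand for Atg4b, chr1:87756076-87756105 on the plus strand for Atg16l1 and chr11:50206003-50206032 on the minus strand for Sqstm1.
Tfe3-212: ggtactcaagGTAAGGacagatccagaagc
Becn1-210: ccccagccagGTGCTTactattcctcagtc
Pik3r4-204: tttgccgcagGTGAAGtcgtcttcctggac
Atg4b-211: cattgctgtgGTATGTtgctctgggtcatc
Atg16l1-208: gtgtgggaagGTGAGGttccggcggccggc
Sqstm1-207: agccctctagGTGAGTgagctttcttgcca

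Each of the 6 windows has GT as the first intron bases, the usual start of an intron. The transcripts differ in how much of the intron they hold. Tfe3-212 holds all 583 bases of its intron and Becn1-210 all 633. Sqstm1-207 holds 344 of 2988 bases, Atg16l1-208 holds 229 of 3965, Pik3r4-204 holds 363 of 1168 and Atg4b-211 holds 183 of 1011, so in these 4 the exon shown ends within the intron. Their levels were 129 ± 27.1 TPM for Sqstm1-207, 16.2 ± 0.54 for Atg16l1-208, 13.4 ± 1.03 for Becn1-210, 10.7 ± 1.38 for Tfe3-212, 6.00 ± 1.37 for Atg4b-211 and 3.03 ± 0.31 for Pik3r4-204 (SD, n = 3, here and below).

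Nearly the whole machinery was present on chromatin: 38 of the 39 genes were detected, against 44.0% of all protein-coding genes. The mean level was at least 10 TPM for 27 of them, and for 26 it lay above 10.98 TPM, the median of the 9689 detected protein-coding genes. On the scale log2(TPM + 1), the members' median was 4.08, 4.14 and 3.97 in replicates 1 to 3 (4.06 ± 0.09), beside 3.56 ± 0.03 for detected protein-coding genes and 0.61 ± 0.03 for all protein-coding genes. Counting only transcripts annotated protein_coding, the median member had 5.89 TPM and the median detected gene 5.62, so the distance between them was smaller on that measure. The 39 genes together took 0.445% to 0.497% of the TPM of protein-coding genes. Sqstm1 alone made up 33.6%, 21.5% and 33.3% of the members' sum.

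**Figure D1:**
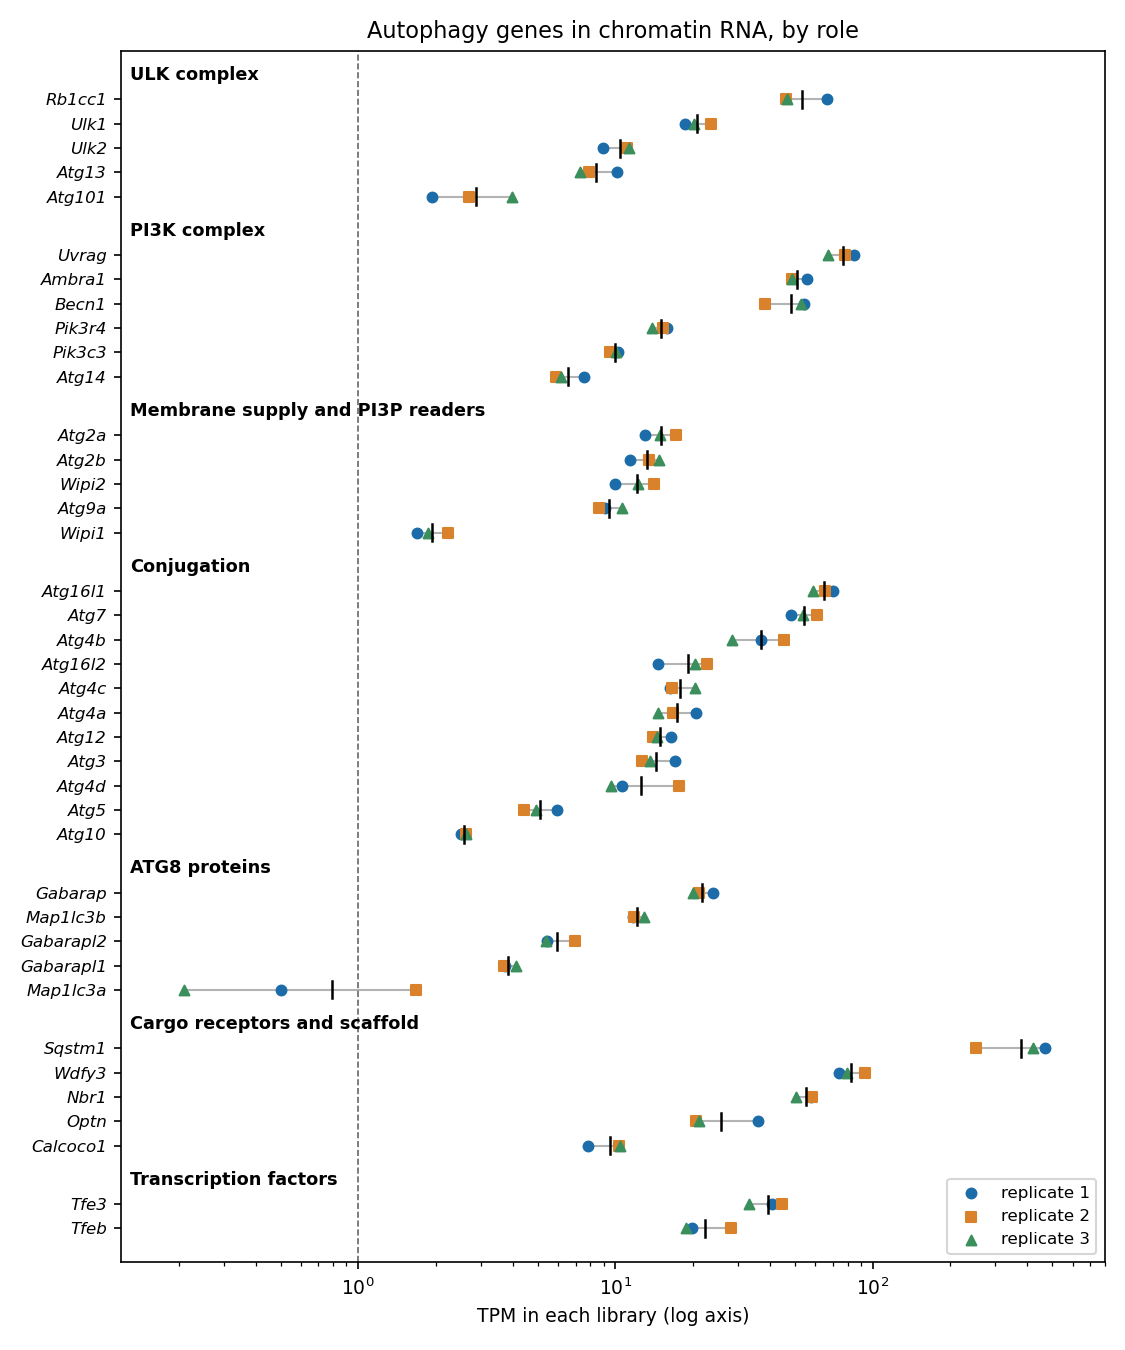
Level of each of the 39 genes in each library, in TPM on a log axis, grouped by role; markers are the 3 replicates, the black tick is their mean and the dashed line is the detection bound of 1 TPM. Sqstm1 lies highest, at 252 to 466 TPM, and Map1lc3a is the gene that falls under the bound.

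The ULK complex was detected in full, with its scaffold above the other subunits, by a wide margin in gene TPM. Rb1cc1, the large scaffold also called FIP200 (chr1:6206197-6276648), was at 66.8, 46.1 and 46.7 TPM, highest in replicate 1. The kinase Ulk1 was at 18.6, 23.6 and 20.2 TPM, and its relative Ulk2 at 8.99, 11.1 and 11.3. The ranges of these 3 genes did not overlap, but in coding transcripts Ulk1 (6.20 ± 0.94 TPM) and Ulk2 (5.89 ± 0.43) did. Only 28.3% of the TPM of Rb1cc1 lay in coding transcripts, which left 14.8 ± 1.86 TPM, still the highest of the complex. Atg13, the subunit that links the kinase to the scaffold, was at 10.1, 7.87 and 7.26 TPM. Atg101, which binds and stabilises Atg13, had the lowest level of the complex at 1.94, 2.70 and 3.95 TPM, resting on 17, 33 and 40 expected counts. The median log2(TPM + 1) of the 5 genes was 3.56 ± 0.08.

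Of the lipid kinase complex all 6 genes were detected, and their median log2 level was 4.78 ± 0.14. Uvrag, which replaces Atg14 in the form of the complex that acts on endosomes and in autophagosome maturation (chr7:98885021-99141141), was at 84.4, 78.3 and 67.0 TPM. Atg14, the subunit that directs the complex to autophagosome formation, was at 7.54, 5.88 and 6.16 TPM, lower than Uvrag in each library. The regulator Ambra1 (chr2:91730134-91918849) was at 55.6, 48.4 and 48.5 TPM, and the shared subunit Becn1 (chr11:101285952-101302286) at 54.1, 38.2 and 52.7. The ranges of Ambra1 and Becn1 overlapped. The lipid kinase itself, Pik3c3, was lower, at 10.3, 9.50 and 10.1 TPM, and its regulatory subunit Pik3r4 was at 15.9, 15.3 and 13.9.

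These gene levels did not carry over to full coding models. Only 7.52% of the TPM of Uvrag and 7.15% of that of Becn1 lay in protein_coding transcripts, which left 5.76 ± 0.78 and 3.38 ± 0.06 TPM. Pik3c3, at 84.0% coding, had 8.34 ± 0.27 TPM in such transcripts. Part of the signal of Uvrag and Becn1 is also uncertain, because exons of each overlap a gene on the other strand and the strand setting of the counting is not given in the sources used here. The antisense gene Gm45187 shares 17.6% of the exon bases of Uvrag and had 215.8, 172.1 and 160.2 expected counts, beside 2623, 2767 and 2594 for Uvrag. Cntd1 shares 43.9% of the exon bases of Becn1 and had 33.0, 56.3 and 53.3 counts, beside 1076, 1234 and 1460 for Becn1.

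The genes of membrane supply and PI3P reading were all detected at moderate levels, with a median log2 level of 3.68 ± 0.21. The lipid transfer proteins Atg2a and Atg2b were at 13.0, 17.3 and 14.9 TPM and at 11.4, 13.5 and 14.7 TPM. These ranges overlapped. The scramblase Atg9a was at 9.15, 8.65 and 10.6 TPM. The PI3P reader Wipi2, which recruits Atg16l1, was at 9.94, 14.1 and 12.2 TPM, and its relative Wipi1 at 1.69, 2.23 and 1.87, so their ranges did not overlap. The deposited upper bounds around the TPM of Wipi1 were much higher, at 5.87, 7.77 and 6.14. The lower bounds for Wipi2 were 8.20, 12.1 and 10.5. In coding transcripts alone Wipi2 had 4.38 ± 0.90 TPM and Wipi1 1.93 ± 0.28.

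All 11 conjugation genes were detected, from 2.58 ± 0.06 TPM for Atg10 to 64.7 ± 5.70 for Atg16l1, with a median log2 level of 4.08 ± 0.10. Atg16l1, which places the ligase complex on the membrane (chr1:87755870-87792428), was at 70.1, 65.2 and 58.7 TPM, and its paralog Atg16l2 at 14.7, 22.6 and 20.4. Atg7, the activating enzyme of both conjugation branches (chr6:114643097-114860614), was at 48.4, 60.8 and 53.5 TPM. The conjugating enzyme that acts on ATG8, Atg3, was at 17.1, 12.7 and 13.6 TPM. Its counterpart for Atg12, Atg10, was at 2.51, 2.62 and 2.62 TPM, with 40, 51 and 49 expected counts. Atg12 and Atg5, which are joined to each other, were at 16.4, 13.95 and 14.6 TPM and at 5.91, 4.40 and 4.92 TPM, without overlap. In coding transcripts their order was opposite, at 4.11, 3.95 and 3.75 TPM for Atg12, and in the second quantification their ranges overlapped, at means of 12.6 and 14.2 TPM.

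The 4 proteases of the Atg4 family, which trim ATG8 before conjugation and release it from membranes, ranged less widely. Atg4b was at 36.7, 45.4 and 28.5 TPM, above the others in every library. Atg4a was at 20.6, 16.8 and 14.7 TPM, Atg4c at 16.3, 16.6 and 20.5 and Atg4d at 10.6, 17.6 and 9.63, and these 3 overlapped. The lead of Atg4b was absent from coding transcripts, where it had 5.84 ± 1.71 TPM, beside 9.48 ± 0.30 for Atg4c, 7.92 ± 1.78 for Atg4a and 7.03 ± 1.21 for Atg4d. Atg4d shares 19.3% of its exon bases with Kri1 on the opposite strand, which had 762, 972 and 1037 expected counts, more than the 544, 848 and 640 of Atg4d, so its level is uncertain.

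The ATG8 genes had the lowest median log2 level of the roles by gene TPM, 2.78 ± 0.18, with 4 of 5 detected. In coding transcripts their median of 4.70 TPM was above those of membrane supply (4.38) and the lipid kinase complex (4.57). Gabarap was at 24.04, 21.1 and 20.1 TPM, and Map1lc3b, the source of the common autophagy marker LC3B, at 11.8, 11.8 and 12.9. Gabarapl2 was at 5.42, 6.97 and 5.38 TPM and Gabarapl1 at 3.73, 3.68 and 4.11. This order, Gabarap above Map1lc3b above Gabarapl2 above Gabarapl1, held in each library without overlap in gene TPM. It did not hold throughout in other measures. In replicate 3, Gabarapl1 was above Gabarapl2 in the second quantification (9.46 and 8.67 TPM) and in coding transcripts (4.11 and 3.97). In replicate 2, coding transcripts put Gabarapl2 at 5.85 and Map1lc3b at 5.55 TPM. The level of Gabarapl1 is also uncertain, because 28.3% of its exon bases overlap 1700101I11Rik on the opposite strand. That gene had 7.73, 11.6 and 10.1 expected counts, beside 80.3, 68.4 and 112 for Gabarapl1. Of the signal of Map1lc3b, 52.2% lay in the retained_intron transcript Map1lc3b-202 and 42.3% in Map1lc3b-204, a coding model with 1 exon. Map1lc3a was the member not detected, at 0.50, 1.67 and 0.21 TPM on 4, 15 and 2 expected counts. The deposited bounds around those TPM were 0.24 to 1.28, 0.948 to 2.57 and 0.0995 to 0.806. In the first quantification all of its TPM was assigned to processed_transcript models, with none in coding ones. In the second, the coding Map1lc3a-201 was at 0.19, 0.74 and 0.48 TPM, 54.8% of the gene.

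The cargo receptors and their scaffold had the highest median log2 level of the roles, 5.81 ± 0.11. Sqstm1, the ubiquitin-binding receptor also called p62 (chr11:50199366-50210827), was at 466, 252 and 420 TPM, which ranked 50 among the 9689 detected protein-coding genes. Replicate 2 was lower than the other two. Wdfy3, a very large scaffold that links aggregates to the machinery (chr5:101832956-102069921), was at 74.4, 93.6 and 79.5 TPM. Nbr1, a receptor related to Sqstm1 (chr11:101552149-101581951), was at 57.5, 58.0 and 50.4 TPM. Optn, a receptor of mitophagy and of cytosolic bacteria (chr2:5020642-5064051), was at 35.7, 20.7 and 21.1 TPM, highest in replicate 1. Calcoco1, a receptor for endoplasmic reticulum and Golgi membrane, was lowest at 7.85, 10.3 and 10.4 TPM.

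Sqstm1 kept the highest level in coding transcripts, at 111 ± 30.8 TPM, followed by Wdfy3 at 75.5 ± 11.3, Atg7 at 40.7 ± 5.11, Ambra1 at 27.4 ± 1.73 and Nbr1 at 20.2 ± 1.98. Uvrag and Atg16l1, next after Wdfy3 by gene level, were not among these 5. Exons of Sqstm1 overlap Mrnip on the opposite strand over 17.3% of their bases, but Mrnip had 6.88 to 8.83 expected counts beside 5065, 3321 and 6033 for Sqstm1.

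The transcription factors Tfeb and Tfe3 switch on lysosomal and autophagy genes when they enter the nucleus. Tfe3 (chrX:7762560-7775202) was at 40.5, 44.4 and 33.1 TPM and Tfeb (chr17:47737030-47792419) at 19.9, 28.1 and 18.7, without overlap. In a pair of other measures their order was opposite. In coding transcripts Tfeb had 16.0 ± 1.98 TPM and Tfe3 5.17 ± 2.46, and in the second quantification Tfeb had 76.2, 82.6 and 77.4 TPM against 38.3 ± 4.79 for Tfe3.

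The share of each gene in retained_intron transcripts varied from near 0 to most of its TPM. It could be scored for 27 members, those with a gene level of at least 5 TPM in every library and both a protein_coding and a retained_intron transcript. The other 12 have no such pair of classes in the annotation. The share was at least 50% in 16 of the 27, beside 42.8% of the 4726 protein-coding genes scored the same way. The members' median was 55.0%, 53.6% and 51.6% in replicates 1 to 3 (53.4% ± 1.68), and that over all scored genes was 46.9%, 47.7% and 43.2% (46.0% ± 2.42). TPM gives short transcripts the same weight per molecule as long ones. By expected counts, the members' median share was 22.7% and that of all scored genes 29.0%, which is the opposite order. The tables do not tell unspliced RNA still being made from a stable transcript that keeps its intron.

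Tfe3 had the highest share, at 80.3%, 90.6% and 89.6% of TPM. Becn1 followed at 86.5%, 83.5% and 76.0%, Pik3r4 at 75.2%, 90.3% and 74.9%, Atg4b at 77.1%, 72.4% and 80.3% and Atg16l1 at 79.0%, 75.6% and 72.4%. The ranges of neighbours in this order overlapped. For these 5 genes the share by expected counts was also above 50%: 94.5% for Tfe3, 78.6% for Becn1, 81.4% for Pik3r4, 58.7% for Atg4b and 69.7% for Atg16l1. That was not so for Sqstm1, whose share of 70.6% ± 1.72 by TPM was 25.95% by counts, nor for Ulk1 (69.8% and 14.5%) or Atg16l2 (70.6% and 15.6%). In the second quantification the share of Becn1 was 49.3%, 40.8% and 53.5%, well below the first, and its leading transcript was the processed_transcript Becn1-206. The share was also lower for Atg16l2, at a mean of 42.2%, and for Uvrag, at 36.7% against 74.1% in the first. The other 4 of the 5 highest genes had means of 82.1% (Tfe3), 66.8% (Pik3r4), 73.0% (Atg4b) and 82.2% (Atg16l1). At the other end, Wdfy3 had 0.35% ± 0.13 of its TPM in its single retained_intron transcript.

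Genes with high shares differed in how many introns the annotation holds inside their retained_intron transcripts. Introns were counted as distinct intervals over all protein_coding transcripts of a gene, so alternative introns that overlap each count. Such an intron counts as read through where a retained_intron transcript runs across its 5′ splice site, so introns that share that site each count. The retained_intron transcripts of Pik3r4 contain 5 of 21 such introns whole and read through the 5′ splice site of 8, and those of Tfe3 contain 5 of 16 and read through 7. For Becn1 the numbers were 3 of 14 and 7, for Atg16l1 3 of 21 and 7, and for Atg4b 1 of 14 and 3. Sqstm1 has 10 introns by this count, none of them whole inside a retained_intron transcript, and 3 are read through.

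In the first quantification the most abundant transcript was protein_coding for 23 of the 38 detected members, retained_intron for 14 and processed_transcript for 1, Atg4c. In the second these numbers were 17, 13 and 7, and for 1 member the leading transcript was annotated nonsense_mediated_decay. All 14 led by a retained_intron transcript in the first were among the 27 scored genes. Of the scored protein-coding genes, 42.2% had a leading transcript of that class. For the other classes no share over all genes was determined. In the first quantification, the 12 genes without a retained_intron model differed widely in how much of their TPM lay in coding models. It was all of it for Atg5, Gabarapl1, Atg101 and Wipi1, 84.0% for Pik3c3, 73.5% for Atg10 and none for Map1lc3a. In the other 5 a large share lay elsewhere: Ambra1 had 45.8% in processed_transcript models, Atg4c 46.3%, Ulk2 43.4%, Optn 39.7% and Atg13 35.6%.

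**Figure D2:**
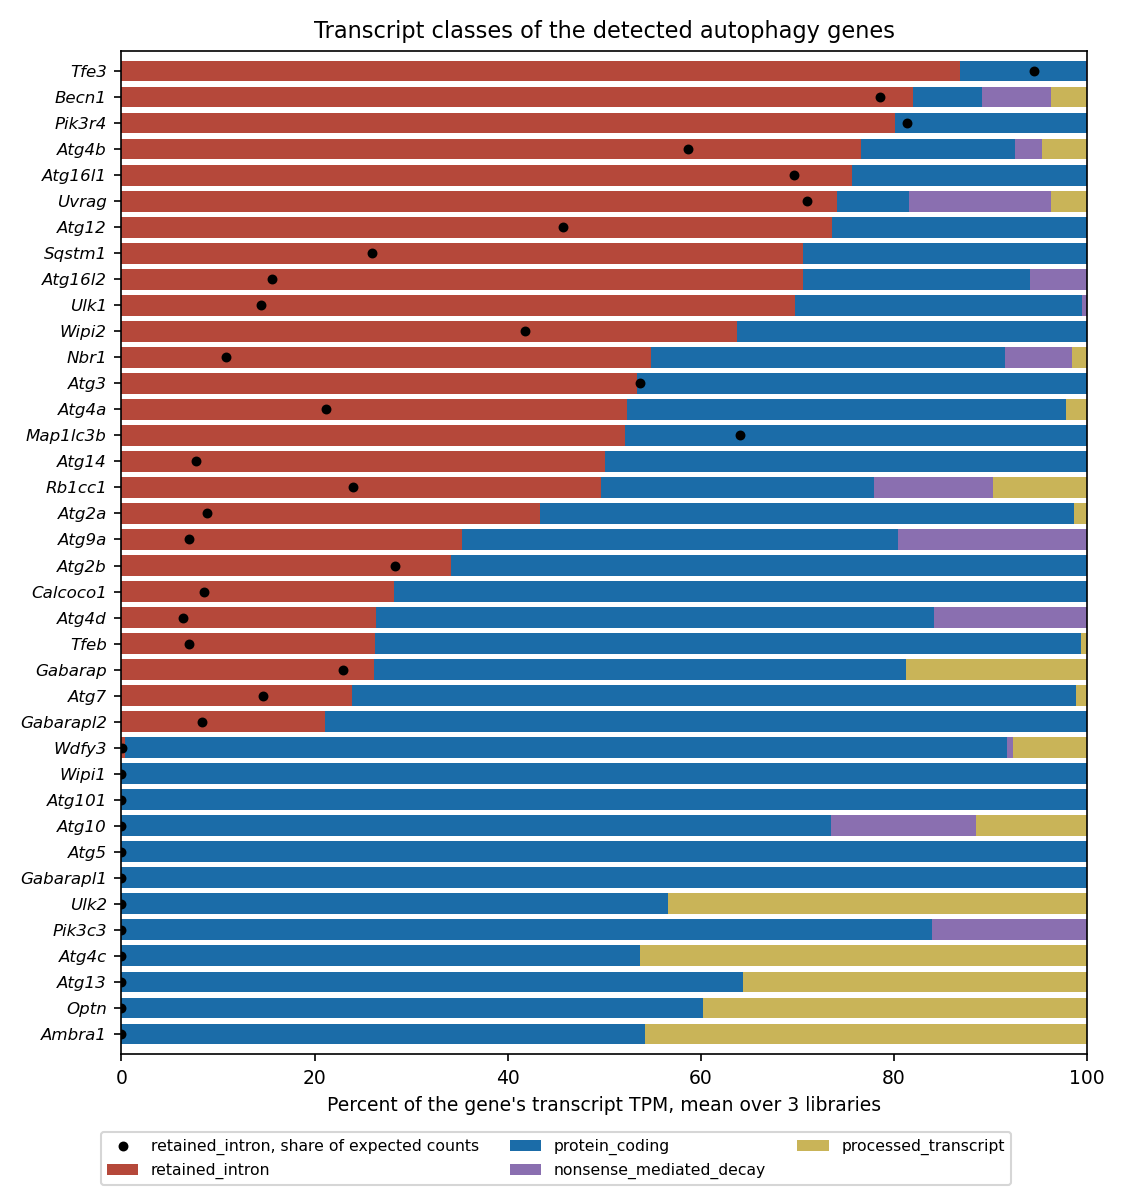
Percent of each detected gene's transcript TPM in each GENCODE transcript class, as the mean over 3 libraries; the black dot is the retained_intron percent by expected counts in place of TPM. Tfe3, Becn1 and Pik3r4 have a high retained_intron share by TPM and by counts of this first quantification, while the dots of Sqstm1, Ulk1 and Atg16l2 lie far left of their bars.

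The second deposited quantification, whose transcript TPM were summed per gene, was over 2-fold higher for 5 of the 38, beside 17.3% of detected protein-coding genes, and over 2-fold lower for none. The median ratio was 1.44 for the members and 1.33 for detected protein-coding genes. At a bound of 1.5-fold, 16 of the 38 differed, but the share over detected protein-coding genes was not determined at that bound. This count can therefore not be called high or low for the members. The same transcript led in both for 15 of the 38, beside 55.2% of detected protein-coding genes.

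Of those 5 genes, Atg10, Atg13, Atg5 and Gabarapl1 had the added signal largely in transcript models that the first quantification set low or at 0. Atg10, the conjugating enzyme for Atg12, was at 12.0, 8.28 and 8.41 TPM in the second quantification, with 51.0% in Atg10-202 against 11.5% in the first. Tfeb was 3.54-fold higher, with Tfeb-207 and Tfeb-208, each at 0 in the first, making up 9.85% and 10.3%, a minor part of its level. Its leading transcript was the protein_coding Tfeb-213 in the second quantification and the protein_coding Tfeb-203 in the first. Atg13 was at 25.8, 29.0 and 20.8 TPM, with 22.6% in Atg13-204 and 20.5% in Atg13-206, both at 0 in the first. Atg5 was at 11.3, 5.68 and 25.6 TPM, so that its libraries lay far apart where the first quantification had 5.91, 4.40 and 4.92. Most of that spread lay in Atg5-202, a processed_transcript model of 415 bases at 4.72, 1.41 and 20.8 TPM, while the coding Atg5-201 was at 6.56, 4.28 and 4.86. Gabarapl1 was at 6.54, 7.05 and 9.46 TPM, with 38.0% in Gabarapl1-204 against 10.3%.

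**Figure D3:**
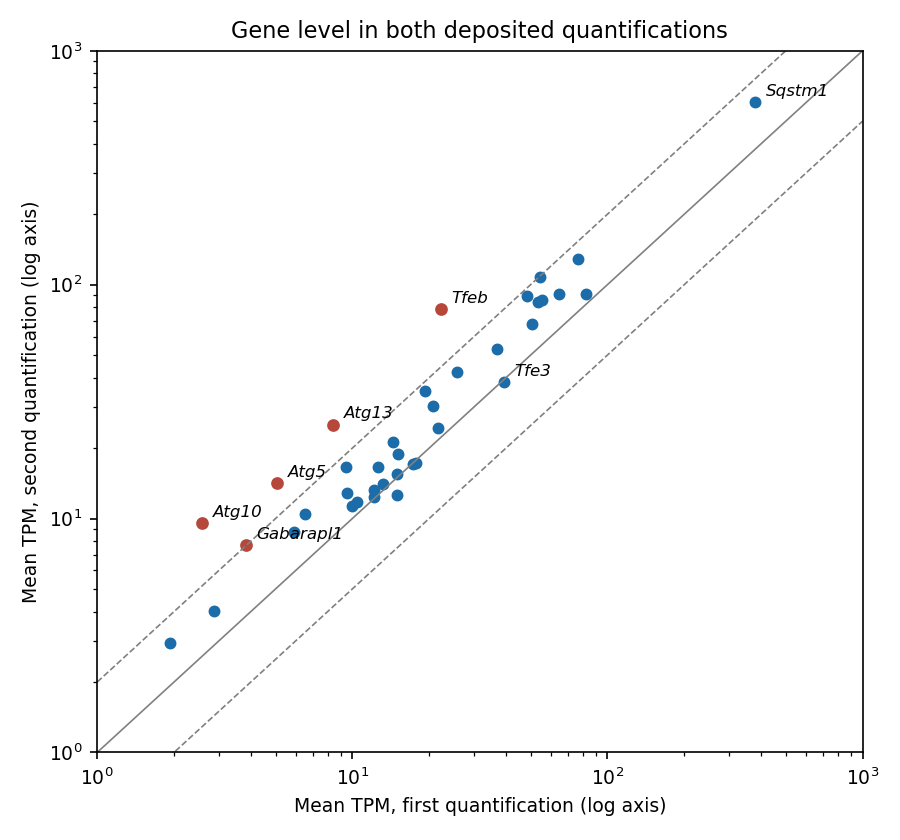
Mean TPM of the 38 detected genes over 3 libraries in the first (horizontal) and second (vertical) quantification, both on log axes; the solid line marks equal values and the dashed lines a 2-fold difference. Tfeb, Atg13, Atg5, Atg10 and Gabarapl1, in red, lie at or above the upper dashed line, and no gene lies under the lower one.

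Differences between relatives were taken within each library on the log2(TPM + 1) scale for 13 pairs. In all 13 the first gene named was higher in 3 of 3 libraries. The pairs were chosen with earlier results of these data known, so this shared direction is a description and not a test. The exact two-sided sign-flip permutation test gave p = 0.25 for each (0.25 after Benjamini-Hochberg adjustment over the 13). That is the smallest value that 3 libraries allow, so the test cannot separate the pairs. Each difference is given with its SD, which measures the spread between the libraries only. The SD does not cover the choice of transcripts or of quantification, which changed the sign of some pairs, as given below. Sqstm1 exceeded Optn by 3.82 ± 0.38 and Nbr1 by 2.71 ± 0.53. Map1lc3b exceeded Map1lc3a by 2.96 ± 0.64, Wipi2 exceeded Wipi1 by 2.15 ± 0.11 and Atg16l1 exceeded Atg16l2 by 1.72 ± 0.40. Among the proteases, Atg4b exceeded Atg4d by 1.498 ± 0.19, Atg4a by 1.03 ± 0.31 and Atg4c by 0.99 ± 0.48.

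Smaller differences were 0.93 ± 0.12 for Ulk1 over Ulk2, 0.81 ± 0.18 for Tfe3 over Tfeb, 0.79 ± 0.19 for Gabarap over Map1lc3b and 0.51 ± 0.23 for Gabarapl2 over Gabarapl1. The lipid transfer pair differed least, Atg2a over Atg2b by 0.18 ± 0.16, and in replicate 3 by 0.02. In coding transcripts alone 5 pairs had the opposite mean sign: -0.06 for Atg2a over Atg2b, -0.40, -0.65 and -0.25 for Atg4b over Atg4a, Atg4c and Atg4d, and -1.53 for Tfe3 over Tfeb. In the same transcripts Ulk1 over Ulk2 came to 0.06 ± 0.13 and Gabarapl2 over Gabarapl1 to 0.22 ± 0.30, each within its SD. In the second quantification Gabarapl2 over Gabarapl1 was 0.18 ± 0.26. For Tfe3 over Tfeb the second quantification also gave the opposite sign, at -1.03.

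**Figure D4:**
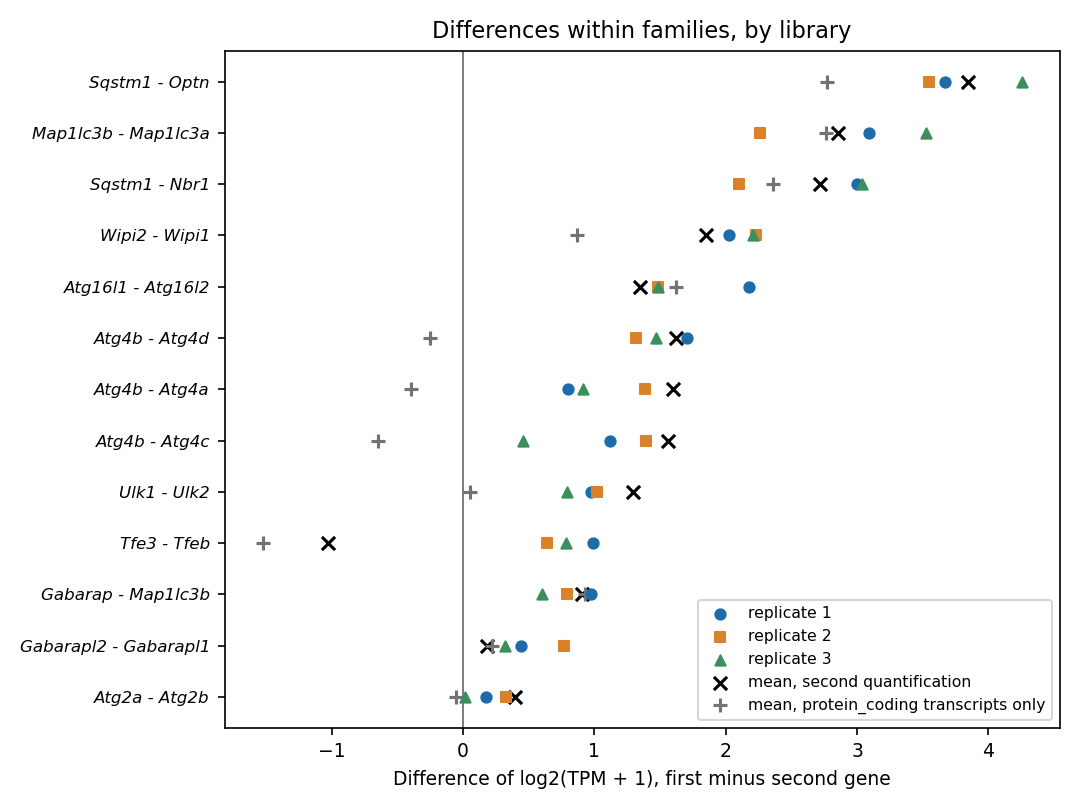
Difference of log2(TPM + 1) between relatives, first gene minus second, in each of the 3 replicates (colours), with the mean in the second quantification (x) and the mean in protein_coding transcripts only (+). All coloured points lie right of 0, and 5 pairs have their + left of 0, among them Tfe3 and Tfeb, whose x is also left of 0.

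The spread between the libraries was similar for the members and for other genes. The biological coefficient of variation (BCV), which edgeR estimates for each gene and draws toward genes of similar level, had a median of 0.188 over the 38 detected members, 0.192 over detected protein-coding genes and 0.203 over all 14193 genes fitted. The coefficient of variation of TMM-normalised counts scaled to the library total (CPM), which is not drawn toward other genes, had a median of 14.1% over the members and 14.7% over detected protein-coding genes. The BCV was lowest for Atg16l1 (0.165), Nbr1 (0.165) and Ambra1 (0.166). It was highest for Atg101 (0.256), Optn (0.230) and Sqstm1 (0.222).

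Only 4 members differed over 1.5-fold between their highest and lowest library in CPM, beside 28.3% of detected protein-coding genes. For Sqstm1 the values were 345.8, 199.2 and 345.2 CPM, so replicate 2 was the low library and the other two were alike. For Optn they were 70.8, 38.2 and 45.6, high in replicate 1. Gabarapl1 was at 5.46, 4.08 and 6.41 CPM, and Atg101 at 1.16, 1.98 and 2.29, a range of few counts. The 2 receptors thus had their lowest value in replicate 2, the library with the largest share of ribosomal RNA counts and the least starting RNA, and the part of either in this was not tested.

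The highest CPM lay in replicate 1 for 11 of the 38 members, in replicate 2 for 14 and in replicate 3 for 13. The shares over detected protein-coding genes were 34.1%, 35.4% and 30.5%. The lowest lay in replicate 1 for 20 members, in replicate 2 for 10 and in replicate 3 for 8, beside 42.6%, 34.8% and 22.6% of detected protein-coding genes. In the second quantification, by TPM, 24 of the 38 were highest in replicate 1, as were 65.2% of detected protein-coding genes.

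**Figure D5:**
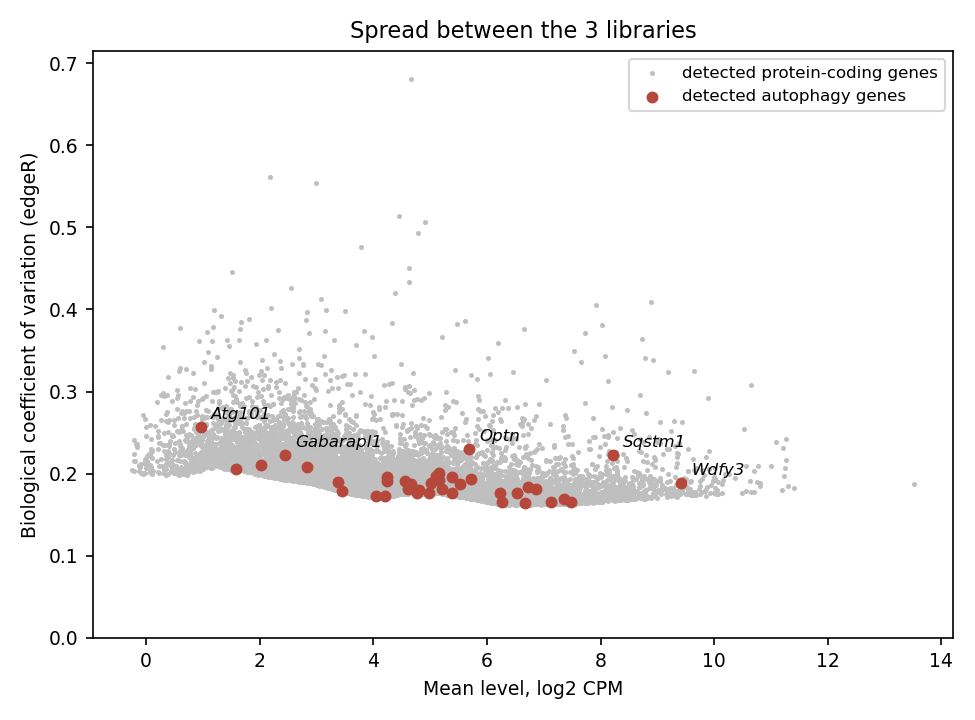
Biological coefficient of variation from edgeR against the mean level in log2 CPM, for detected protein-coding genes (grey) and the 38 detected autophagy genes (red). Most members lie in the lower part of the grey cloud at their level, and Atg101, Optn, Sqstm1 and Gabarapl1 lie above the others.

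Genes that act before, beside and after the core machinery were also present. Of 19 genes of nutrient and energy signalling, the pathway through which mTORC1 and AMPK control autophagy, 17 were detected. Fnip2 and Flcn, partners that act on the Rag GTPases at lysosomes, were the highest, Fnip2 at 350, 229 and 255 TPM and Flcn at 60.6, 70.4 and 67.9. The mTOR inhibitor Deptor (0.67, 2.02 and 2.09 TPM) and the AMPK subunit Prkaa2 (0.14, 0.02 and 0.11) were not detected. Of 10 further core genes 9 were, led by Vmp1, a scramblase of the endoplasmic reticulum, at 385, 311 and 308 TPM, and by the PI3P-binding Zfyve1 at 25.9, 28.3 and 28.0. Atg9b, the relative of Atg9a, was not, at 0.61, 0.35 and 0.64 TPM.

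Of 14 further cargo receptors 12 were detected. The ferritin receptor Ncoa4 was at 74.6, 47.9 and 50.2 TPM and Tax1bp1, a receptor for ubiquitinated cargo, at 64.2, 44.0 and 53.8, both highest in replicate 1. Calcoco2 and Stbd1 had no count in any library, which allows up to 3 counts, or 0.222, 0.168 and 0.168 CPM. All 12 genes of fusion with lysosomes were detected, led by the tethering subunits Vps16 (73.0, 59.9 and 62.0 TPM) and Vps41 (60.4, 44.4 and 46.4). Both relatives of Tfeb and Tfe3 were detected, Mitf at 45.1, 34.3 and 33.2 TPM and Tfec at 36.1, 26.5 and 34.6. All 20 lysosomal genes of the network that Tfeb controls were detected, with a summed level of 2990 to 3575 TPM. Gpnmb, a lysosomal membrane glycoprotein, was highest at 1045, 652 and 849 TPM and Psap, the precursor of the saposins, next at 688, 720 and 691. These detection counts stand beside the 44.0% of all protein-coding genes detected.

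Promoters of the members were searched for the sequences that factors of this setting bind, since Tfeb and Tfe3 are themselves members. RefSeq promoters on GRCm38.p6, from 250 bases before to 50 after a start, were matched for 32 of the 39 genes, with 38 entries. The E-box core CACGTG, the same on both strands, was in 4 of the 38 (10.5%), those of Atg3, Atg5, Atg7 and Atg14, and in 7.15% of all 32851 promoters. The longer form TCACGTGA, which contains that core and is bound by the MiT/TFE factors, was in 1, that of Atg3 (2.63%, beside 0.974% of all). For Atg7 and Atg14 the RefSeq start lies inside the GENCODE gene and not at its first base. The windows below are on the strand of the gene, with the core in capitals. They lie at chr16:45158725-45158773 on the plus strand for Atg3, chr10:44268315-44268340 on the plus strand for Atg5, chr6:114670954-114670979 on the plus strand for Atg7 and chr14:47568420-47568445 on the minus strand for Atg14.
Atg3: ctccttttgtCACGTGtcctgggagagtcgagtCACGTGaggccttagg
Atg5: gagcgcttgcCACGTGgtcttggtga
Atg7: tattggtggtCACGTGtgcagtaagt
Atg14: aacaaaatccCACGTGactggccctg

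Atg3 holds the core in 2 places, and the copy nearer the start is the one within the longer form. Atg3, Atg5 and Atg7 belong to conjugation, the role of 11 of the 39 members, and Atg14 to the lipid kinase complex, the role of 6. The mean levels of these 4 genes were 14.5, 5.08, 54.2 and 6.53 TPM in the order shown. The AP-1 letters TGANTCA, searched on both strands, were in the promoter of Tfe3 alone (2.63% of the 38, beside 7.81% of all). The antioxidant response letters TGACNNNGC were in those of Atg13, Map1lc3b and Ulk2 (7.89%, beside 12.4%), and no match was found for Sqstm1. A match is a description of the letters, not a binding site, and a window without one says nothing of the factor.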

How the data were processed

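Chromatin RNA of 3 libraries of 1 condition was analysed. Per the file headers, 1 gene table and 1 transcript table (the first quantification) hold expected counts, TPM and interval bounds around TPM (deposited as signal values) in columns named as RSEM names them. The second transcript table holds estimated counts and TPM that the authors deposited in columns named as kallisto names them. The deposited notes give mm10 and GENCODE M21; aligner, versions and strandedness were not given in the sources used here. Rows that are not annotated genes held 1.75%, 0.396% and 0.239% of the expected counts and were left out.

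Detection means 1 TPM or more in each of the 3 libraries, and log2 levels use a pseudocount of 1. Expected counts were rounded for edgeR 4.0.16 (R 4.3.3; filterByExpr, TMM, estimateDisp with an intercept only), fitted over the whole table. DESeq2 1.42.0 served as an alternative, and Python 3.11.15 did the rest. Counts were whole, within 0.005, for 26 members in every library; for the other 13 the deposited counts were not whole, as where reads shared between genes are divided. The sign-flip test and the BCV estimate were tested on simulated data.

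With 1 condition there is no contrast. The members, role groups, pairs and further lists were chosen with earlier results of these data known. Values in every library are given for the 10 highest members, members of pairs, those not detected, those with extreme BCV or retained_intron share, and those whose quantifications differ over 2-fold; of each further list, the highest 2 and those not detected are named. Alternatives were the second quantification, posterior mean TPM, other bounds, pseudocounts and normalisations, and leaving out each replicate. Motifs and sequence windows were chosen after the values were seen.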

Additional observations from a re-analysis of the deposited data

How the results depend on the processing

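Of 91 alternatives for the 13 pair differences, 85 kept the sign and 6 did not. The 6 were the restriction to coding transcripts, chosen after seeing the data (Atg2a over Atg2b -0.056, Atg4b over Atg4a -0.40, over Atg4c -0.65 and over Atg4d -0.25, Tfe3 over Tfeb -1.53), and the second quantification for Tfe3 over Tfeb (-1.03). Of 54 alternatives for the other results, 43 stayed near the reported value and 11 moved. The second quantification gave a members' median of 4.27 (log2), a retained_intron share of 49.9% beside 44.8% over all scored genes, 24 members highest in replicate 1 and 5 highest in replicate 2. Coding transcripts alone gave a median of 2.84. The share by expected counts, chosen after seeing the data, was 22.7% beside 29.0% over all scored genes. With TPM in place of CPM, 8 members were highest in replicate 3. A bound of 1.5-fold separated 16 members between the quantifications, in place of 5, with no share over all genes determined at that bound. The coefficient of variation of CPM, 0.141, was lower than the BCV. The median BCV was 0.152 without replicate 1 and 0.233 without replicate 3. The number of detected members was 38 in 6 of the 7 alternatives and 33 at a bound of 5 TPM. Levels under about 3 TPM rest on few counts: Map1lc3a had 2 to 15 and Atg101 17 to 40.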
